A study of Drosophila melanogaster with 26 samples.

Results

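Tousled-like kinase (tlk, CG34412, on the X chromosome) was represented by FBtr0112680 and FBtr0299582, 2 of the 17130 rows of an expression table measured in primordial germ cells (PGCs) and somatic cells of Drosophila melanogaster embryos. Both identifiers are FlyBase transcript identifiers, and the matching names are CG34412-RB for FBtr0112680 and CG34412-RH for FBtr0299582. They were chosen from the measured values, because FBtr0112680 was higher in somatic cells and FBtr0299582 was higher in PGCs, so the contrast of PGCs with somatic cells is given below as a description with no test. The table holds 26 samples in 7 groups. PGCs from *smaug*-mutant embryos were sampled at 1-3 h (3 replicates), 3-5 h (3 replicates) and 5-7 h (4 replicates), and wild-type PGCs at the same times with 4 replicates each. Wild-type somatic cells were sampled at 1-3 h with 4 replicates. The labels call the replicates biological.

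Mutant embryos came from smg1/Df(3L)Scf-R6 mothers, hemizygous for *smaug*, and the wild-type strain was w1118, VASA-GFP/CyO; PrDr/TM3,Sb. Both genotypes carried the Vasa-GFP transgene, and PGCs were the GFP-positive cells and somatic cells the GFP-negative cells of a fluorescence sort. No mutant somatic cells and no somatic cells after 1-3 h were analysed here. RNA was amplified, labelled with a fluorescent dye and hybridized to custom NimbleGen arrays. Values are log2 of the deposited normalized intensity, so a difference of 1 is a 2-fold change. Intensity depends on the probes as well as on the RNA, so each row was compared only with itself across samples. Which exons the probes of a row cover was not known here, and RefSeq lists 14 transcripts of the gene, so the rows are called by their identifiers.

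Tousled-like kinases are serine/threonine kinases that are active while DNA is replicated. They phosphorylate the histone chaperone Asf1, which delivers histones for chromatin assembly, and in Drosophila loss of tlk blocks nuclear divisions of the early embryo. Early embryos start with RNA loaded by the mother, which is cleared while the embryo's own genome is switched on, and Smaug is an RNA-binding protein that directs much of this clearance.

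FBtr0112680 was the row of the pair with the wide span. In *smaug*-mutant PGCs its log2 signal was 11.03, 11.81 and 10.78 at 1-3 h, 14.85, 14.21 and 14.96 at 3-5 h, and 14.10, 14.49, 14.10 and 14.24 at 5-7 h. In wild-type PGCs it was 10.31, 9.98, 11.01 and 12.35 at 1-3 h, 14.89, 14.91, 14.76 and 15.19 at 3-5 h, and 14.44, 14.44, 14.71 and 14.54 at 5-7 h. Somatic cells gave 14.81, 15.06, 15.17 and 15.19. Every 1-3 h PGC sample of both genotypes lay below every other sample of the series, and replicate 4 of the wild-type PGCs was the highest of these early samples. The signal was still well inside the measured range there, since the early PGC samples lay at the 65.0 to 84.9 percentile of all rows on their arrays, against 98.8 to 99.5 in somatic cells.

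FBtr0299582 followed another course. In *smaug*-mutant PGCs its log2 signal was 14.02, 13.41 and 13.14 at 1-3 h, 13.91, 13.63 and 14.17 at 3-5 h, and 11.53, 12.46, 10.70 and 11.24 at 5-7 h. In wild-type PGCs it was 13.76, 13.39, 13.66 and 13.82 at 1-3 h, 13.32, 13.25, 13.05 and 13.09 at 3-5 h, and 11.10, 12.11, 10.29 and 10.76 at 5-7 h. Somatic cells gave 12.34, 12.57, 12.68 and 12.54. All 1-3 and 3-5 h PGC samples lay above the somatic samples, and 7 of the 8 samples at 5-7 h lay between 10.29 and 12.11, below all of them. The exception was replicate 2 of the mutant PGCs at 12.46, which fell within the somatic range.

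**Figure D1:**
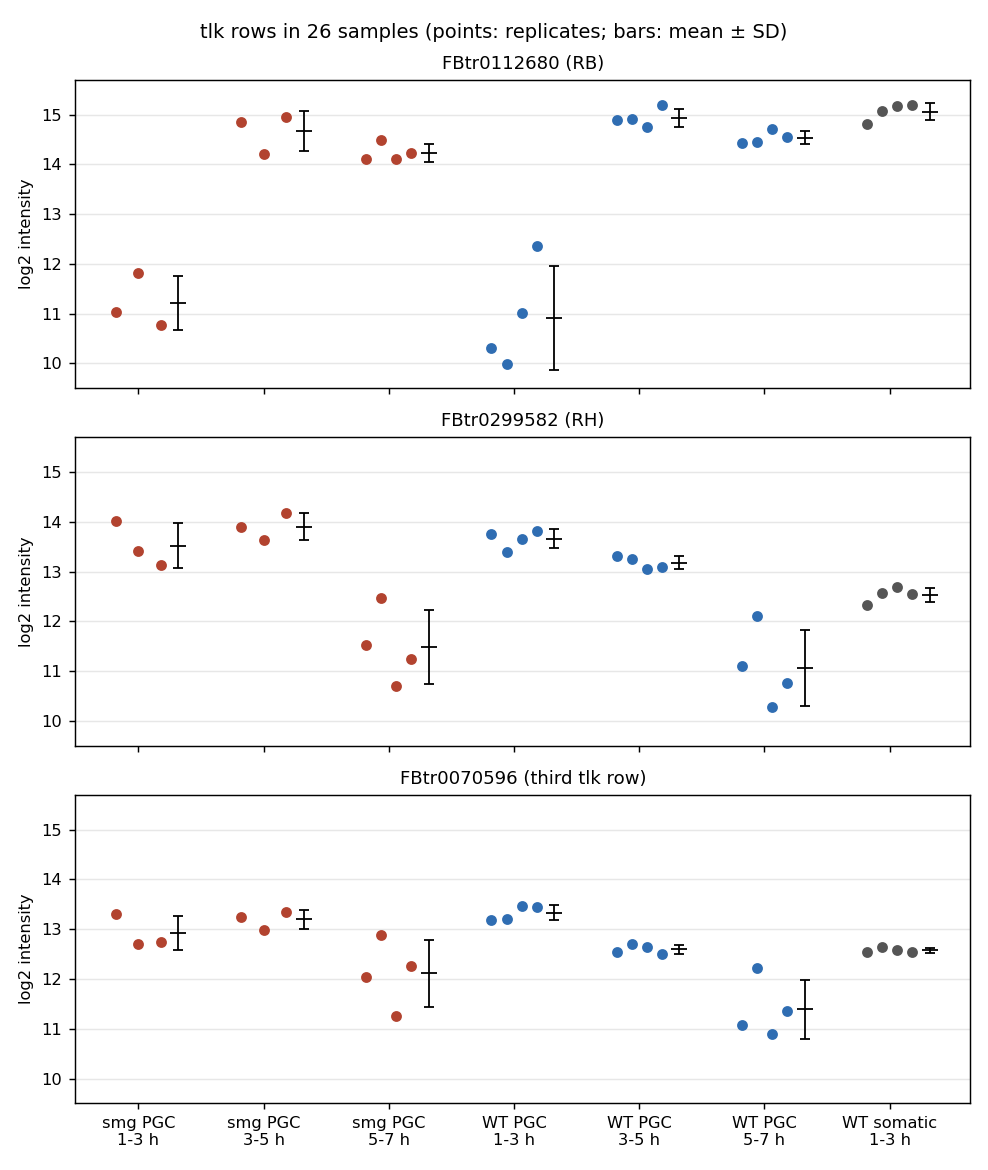
Log2 intensity (vertical axis) of the 3 named tlk rows in each sample, by group: *smaug*-mutant (smg) PGCs in red, wild-type (WT) PGCs in blue and somatic cells in grey. Points are replicates and bars are mean ± SD. FBtr0112680 is low only in the early PGC samples, at 9.98 to 12.35, whereas FBtr0299582 and FBtr0070596 are lowest in the 5-7 h PGCs.

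Ordered by group mean, FBtr0112680 was highest in somatic cells at 15.06 ± 0.17 (SD, n = 4), followed by wild-type 3-5 h PGCs at 14.94 ± 0.18 (SD, n = 4), mutant 3-5 h PGCs at 14.67 ± 0.40 (SD, n = 3), wild-type 5-7 h PGCs at 14.53 ± 0.13 (SD, n = 4) and mutant 5-7 h PGCs at 14.23 ± 0.18 (SD, n = 4). Each pair of neighbours in this order overlapped, so no single step among these 5 groups was larger than the spread between replicates. After a gap of 3.02 between group means with no overlap came mutant 1-3 h PGCs at 11.21 ± 0.54 (SD, n = 3) and wild-type 1-3 h PGCs at 10.91 ± 1.05 (SD, n = 4), which overlapped each other.

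FBtr0299582 was highest in mutant 3-5 h PGCs at 13.90 ± 0.27 (SD, n = 3), then in 1-3 h PGCs of wild type at 13.66 ± 0.19 (SD, n = 4) and of the mutant at 13.52 ± 0.45 (SD, n = 3), and then in wild-type 3-5 h PGCs at 13.18 ± 0.13 (SD, n = 4). Neighbours in this upper part of the order overlapped. Somatic cells stood apart from it at 12.53 ± 0.14 (SD, n = 4), 0.65 below the wild-type 3-5 h PGCs with no overlap. The 5-7 h PGCs were lowest, at 11.48 ± 0.74 (SD, n = 4) in the mutant and 11.06 ± 0.77 (SD, n = 4) in wild type, and the mutant samples overlapped both the somatic and the wild-type samples.

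The contrast that chose the rows was large for one of them. FBtr0112680 differed from somatic cells by -3.85 on the log2 scale in mutant 1-3 h PGCs, 14.4-fold lower, and by -4.15 in wild-type 1-3 h PGCs, 17.7-fold lower. FBtr0299582 was higher by 0.99 in mutant 1-3 h PGCs, 1.99-fold, and by 1.13 in wild-type 1-3 h PGCs, 2.18-fold. None of these 4 comparisons had overlapping samples. By 3-5 h FBtr0112680 in PGCs overlapped the somatic range in both genotypes, with differences of -0.38 in the mutant and -0.12 in wild type. By 5-7 h FBtr0299582 had passed to the other side of the somatic level, with differences of -1.05 in the mutant and -1.47 in wild type, the second of which was -0.93 with wild-type replicates 1 and 2 alone. The somatic samples are of 1-3 h, so these later differences set PGCs against younger somatic cells. The labels give Cy3 for the somatic samples and mutant 3-5 h PGCs and Cy5 for all other PGC samples, so outside that mutant group the dye cannot be told apart from the cell type here. In bulk samples such as these, fewer cells that carry a transcript and less of it per cell cannot be told apart either.

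The targeted gene and the cell type markers bear on the labels. For the brighter *smg* row, FBtr0076550, log2 signals were 11.19 to 11.73 in mutant PGCs against 13.25 to 13.98 in wild-type PGCs at 1-3 h, 11.46 to 11.73 against 12.48 to 12.66 at 3-5 h and 10.58 to 11.36 against 11.53 to 12.22 at 5-7 h, without overlap. The second row, FBtr0076549, did not overlap between genotypes at any of the 3 times either. Of 12 germ line markers listed, 8 had a named row, and all 8 were higher in wild-type 1-3 h PGCs than in somatic cells. Their summed intensity was 178203 to 194920 in those PGCs and 17806 to 23416 in somatic cells. Of 15 somatic markers, 6 had a named row and 4 of these were lower in wild-type 1-3 h PGCs, the exceptions being zen and tll, both embryonic patterning genes. The median log2 signal of the array controls was 4.06 to 4.83, and no germ line marker in PGCs and no somatic marker in somatic cells had a mean that low. The summed germ line markers were 234338 to 258642, 199995 to 221058 and 191620 to 222958 in mutant PGCs in order of time, and 113017 to 128417 in wild-type PGCs at 3-5 h. At 5-7 h they were 163683 and 165210 in wild-type replicates 1 and 2 but 62020 and 77343 in replicates 3 and 4, where the summed somatic markers were 37734 and 37201 against 9611 and 7705 in replicates 1 and 2. The somatic list summed to 1488 to 4403 over all mutant PGC samples, to 5912 to 7462 and 14465 to 18870 in wild-type PGCs at 1-3 and 3-5 h, and to 65867 to 79909 in somatic cells. The part of these differences in the results on tlk was not tested. A set of 50 transcript rows was picked for being high in somatic cells and much lower in wild-type 1-3 h PGCs, so its low values in those PGCs follow from the choice. It stood at 68.3 and 60.4 percent of its somatic level in wild-type 5-7 h replicates 3 and 4, and at 0.36 to 2.60 percent in every other PGC sample. The tests of the tlk rows on wild-type 5-7 h PGCs are therefore also given for replicates 1 and 2 alone. Those settings drop only wild-type samples, so comparisons between genotypes then set them against mutant samples of every replicate number. Mean log2 signals of the 26 arrays ran from 8.18 to 8.25.

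The comparison of 3-5 with 1-3 h asks how the rows changed while PGCs left their transcriptionally quiet phase. FBtr0112680 rose in both genotypes. In *smaug*-mutant PGCs it averaged 14.67 at 3-5 h and 11.21 at 1-3 h, a log2 difference of 3.46 with a standard error of 0.34 and a 95% confidence interval of 2.66 to 4.27 (adjusted p = 0.00529 from limma), or 11.04-fold. In wild-type PGCs it averaged 14.94 at 3-5 h and 10.91 at 1-3 h, a log2 difference of 4.02 (standard error 0.46, 95% confidence interval 2.98 to 5.07, adjusted p = 0.000427 from limma), or 16.3-fold. In both genotypes every later sample was above every earlier one. Rises above 2-fold at an adjusted p of 0.05 were called for 5.35 percent of the 16623 tested rows in the mutant and 9.02 percent in wild type. The mutant share depended on single samples, with 1031 to 1478 rows called in either direction when 1 sample was left out, against 1814 with all samples. Among all tested rows the rise of FBtr0112680 was the 13th in size in the mutant and the 4th in wild type. The rows were chosen on their values across all 7 groups, so no comparison of times or genotypes given here is independent of that choice, and the calls describe the rows that were chosen. In the mutant the 3-5 h samples carry Cy3 and the 1-3 h samples Cy5 in the labels, so dye and time cannot be told apart there, whereas all wild-type PGC samples carry Cy5.

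FBtr0299582 did not change by 2-fold over the same interval in either genotype. In the mutant it averaged 13.90 at 3-5 h and 13.52 at 1-3 h, a log2 difference of 0.38 (95% confidence interval -0.29 to 1.04, adjusted p = 0.394 from limma). In wild type it averaged 13.18 at 3-5 h and 13.66 at 1-3 h, a log2 difference of -0.48 (95% confidence interval -0.81 to -0.15, adjusted p = 0.0355 from limma), which passed the adjusted p but not the fold limit. The wild-type samples of the 2 times did not overlap and the mutant ones did.

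Between 3-5 and 5-7 h it was FBtr0299582 that moved. In mutant PGCs it averaged 11.48 at 5-7 h and 13.90 at 3-5 h, a log2 difference of -2.42 (standard error 0.39, 95% confidence interval -3.33 to -1.51, adjusted p = 0.00775 from limma), a 5.34-fold fall. In wild-type PGCs it averaged 11.06 at 5-7 h and 13.18 at 3-5 h, a log2 difference of -2.11 (standard error 0.37, 95% confidence interval -2.96 to -1.27, adjusted p = 0.038 from limma), a 4.33-fold fall. Falls above 2-fold were called for 6.25 percent of the tested rows in the mutant and 1.52 percent in wild type, and that of FBtr0299582 was the 99th in size in the mutant and the 310th in wild type. No sample of the later time reached the earlier range in either genotype. By 5-7 h the row stood at 24.3 percent of its 1-3 h level in the mutant and 16.6 percent in wild type, as ratios of geometric means, and the wild-type share was 24.1 percent with replicates 1 and 2 alone.

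The wild-type fall was shallower without the 2 samples high in somatic transcripts, and its call rested on single samples. With replicates 1 and 2 alone at 5-7 h the log2 difference was -1.57 (adjusted p = 0.0227 from limma), and with replicates 3 and 4 alone it was -2.65 (adjusted p = 0.000505). The second of these settings was chosen after the data were seen. The values of replicates 3 and 4, 10.29 and 10.76, were the lowest of the group, and all 4 values of the group lay below the somatic range. In the mutant replicates 3 and 4 were also the lowest at 5-7 h, at 10.70 and 11.24. There the 50 rows high in somatic cells stood at 2.60 and 2.27 percent of their somatic level. The part of somatic transcripts in the depth of the wild-type fall was not tested. Leaving out 1 wild-type sample at a time kept the difference between -2.46 and -1.85, but the adjusted p was above 0.05 without any 1 of the 4 samples at 3-5 h, where it was 0.112 to 0.123, and without replicate 1 or replicate 4 at 5-7 h, where it was 0.0592 and 0.0672. Without any 1 of the 3-5 h samples 0 rows of the table were called by limma, although 2957 to 3067 rows had an unadjusted p below 0.05. SAM, a permutation test on the linear intensities, called the fall in a set of 1153 rows. The mutant call was kept with each sample left out, at adjusted p-values of 0.00525 to 0.0343. In the labels the mutant 5-7 h samples carry Cy5 and the 3-5 h samples Cy3, so dye and time cannot be told apart in the mutant, and the wild-type samples of both times carry Cy5.

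FBtr0112680 was not called over this later interval. It averaged 14.23 at 5-7 h and 14.67 at 3-5 h in the mutant, a log2 difference of -0.44 (95% confidence interval -0.97 to 0.09, adjusted p = 0.221 from limma). In wild type it averaged 14.53 at 5-7 h and 14.94 at 3-5 h, a log2 difference of -0.40 (95% confidence interval -0.81 to 0.0004, adjusted p = 0.208 from limma). With replicates 1 and 2 alone the wild-type difference was -0.50 (adjusted p = 0.12). The intervals of both genotypes, with all samples, leave out a fall of 2-fold. In wild type the samples of the 2 times did not overlap, and in the mutant they did.

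**Figure D2:**
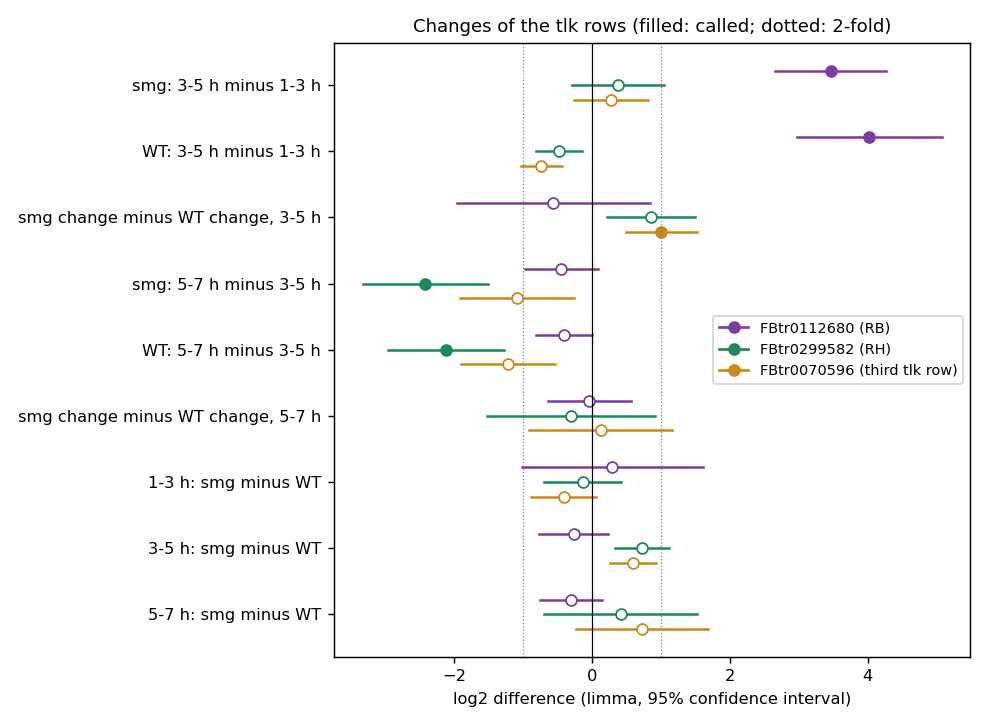
Log2 differences (horizontal axis) of the 3 tlk rows in 9 comparisons, with 95% confidence intervals from limma. Filled points passed both limits (adjusted p at most 0.05, change above 2-fold), and dotted lines mark 2-fold. The rises of FBtr0112680, 3.46 and 4.02, lie in the early interval, and the falls of FBtr0299582, -2.42 and -2.11, in the late one.

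Set against all rows, the 2 members occupied different regions. The median log2 difference of all tested rows was close to 0 in each comparison, at -0.03 for 3-5 against 1-3 h in both genotypes, 0.02 for 5-7 against 3-5 h in the mutant and -0.01 in wild type. The normalization between arrays holds this median near 0, so it says nothing of the total RNA. Rises and falls given here are relative to the array as a whole. FBtr0112680 was at the edge of the distribution in the early interval in both genotypes and within its bulk in the late interval. FBtr0299582 lay within the bulk in the early interval and in the lower tail in the late one. The mutant and wild-type time comparisons share no samples.

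**Figure D3:**
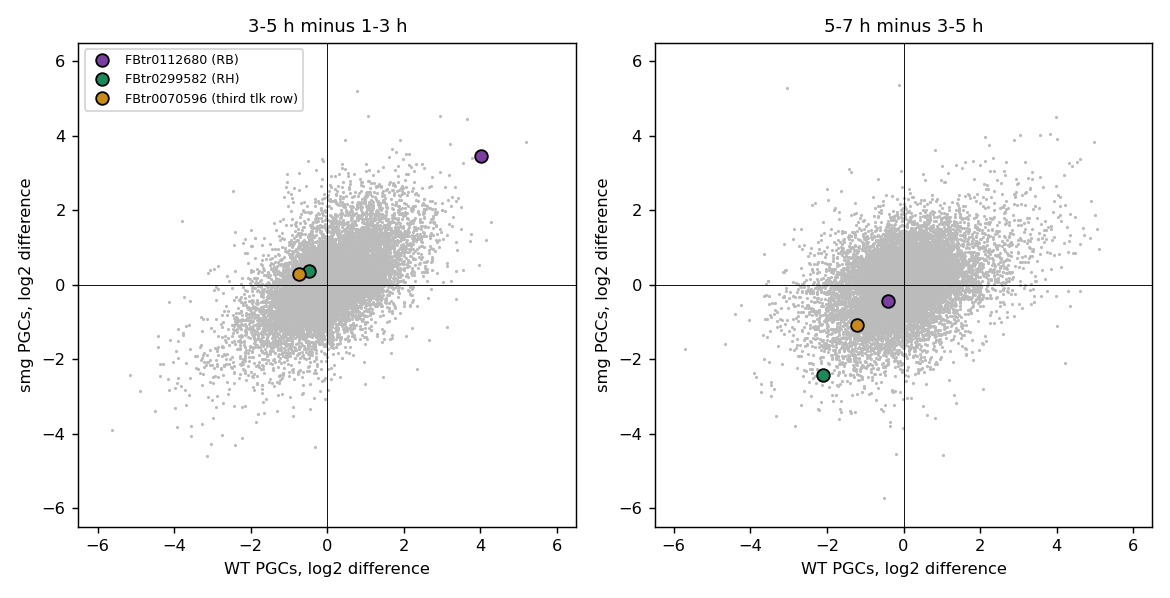
Log2 differences of all 16623 tested rows (grey points) in wild-type PGCs (horizontal axis) and *smaug*-mutant PGCs (vertical axis), for 3-5 minus 1-3 h on the left and 5-7 minus 3-5 h on the right. FBtr0112680 lies at 3.46 in the mutant and 4.02 in wild type in the early interval, and FBtr0299582 at -2.42 in the mutant and -2.11 in wild type in the late one.

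The unequal change of the 2 rows was also taken within each sample, as log2 of FBtr0299582 minus log2 of FBtr0112680. Its absolute value has no meaning across probes, but its change between groups does. In mutant PGCs it was 2.99, 1.60 and 2.36 at 1-3 h, -0.95, -0.59 and -0.79 at 3-5 h, and -2.57, -2.02, -3.40 and -2.997 at 5-7 h. In wild-type PGCs it was 3.45, 3.41, 2.66 and 1.47 at 1-3 h, -1.57, -1.66, -1.71 and -2.09 at 3-5 h, and -3.34, -2.33, -4.43 and -3.78 at 5-7 h. Somatic cells gave -2.48, -2.50, -2.48 and -2.65. The 3 times were separated without overlap within each genotype.

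From 1-3 to 3-5 h this difference changed by -3.09 in mutant PGCs (exact two-sided permutation p = 0.1) and by -4.51 in wild-type PGCs (exact two-sided permutation p = 0.0286). From 3-5 to 5-7 h it changed by -1.97 in the mutant (exact permutation p = 0.0571) and by -1.71 in wild type (exact permutation p = 0.0286). Each of these 4 p-values is the smallest that its number of samples allows. Benjamini-Hochberg adjustment over the 7 such tests gave 0.1 for 3 of the 4 and 0.14 for the early mutant change, and with these sample numbers no adjusted value under 0.0667 could have been reached. With wild-type replicates 1 and 2 alone at 5-7 h the late wild-type change was -1.08 (adjusted permutation p = 0.187).

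**Figure D4:**
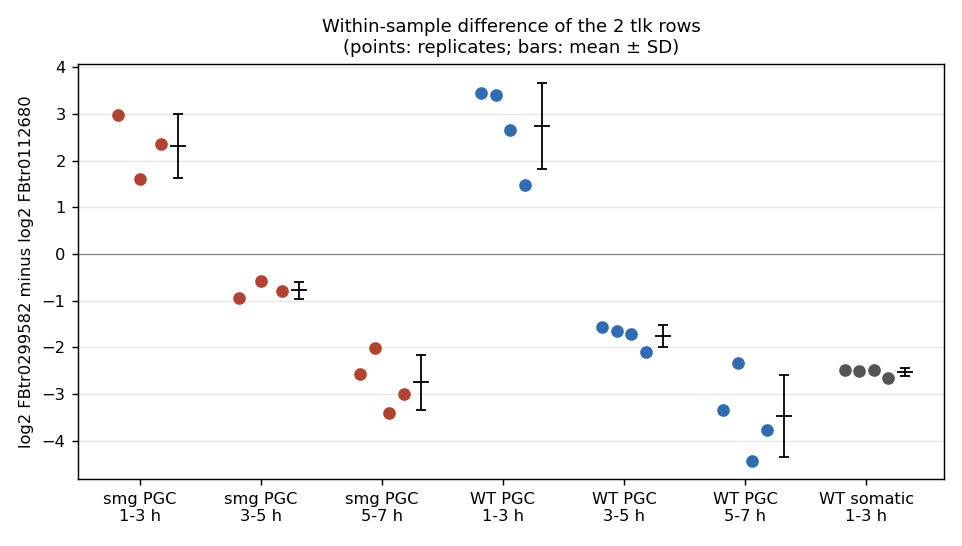
Log2 of FBtr0299582 minus log2 of FBtr0112680 in each sample (vertical axis), by group, with points for replicates and bars for mean ± SD. The difference is above 1.4 in every 1-3 h PGC sample and below 0 in every later PGC sample and in somatic cells.

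The comparison of *smaug*-mutant with wild-type PGCs asks whether either row depends on Smaug. At 1-3 h FBtr0112680 averaged 11.21 in the mutant and 10.91 in wild type, a log2 difference of 0.30 (95% confidence interval -1.02 to 1.62, adjusted p = 0.757 from limma). FBtr0299582 averaged 13.52 in the mutant and 13.66 in wild type, a difference of -0.13 (95% confidence interval -0.70 to 0.43, adjusted p = 0.74). Neither differed detectably at this time, although the interval for FBtr0112680 reaches a 3.06-fold difference. Leaving out 1 sample at a time moved its difference between -0.014 and 0.78. Higher levels in the mutant above 2-fold were called for 7.46 percent of rows.

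At 3-5 h FBtr0299582 was higher in the mutant. It averaged 13.90 in mutant PGCs and 13.18 in wild-type PGCs, a log2 difference of 0.72 (standard error 0.17, 95% confidence interval 0.33 to 1.11, adjusted p = 0.0148 from limma), 1.65-fold and thus below the fold limit. All 3 mutant samples were above all 4 wild-type samples. In a fit of all 7 groups the adjusted p of this difference was 0.16. A higher level in the mutant at an adjusted p of 0.05, whatever the fold, was found for 16.2 percent of the tested rows. FBtr0112680 averaged 14.67 in the mutant and 14.94 in wild type, a difference of -0.26 (95% confidence interval -0.76 to 0.23, adjusted p = 0.398). The mutant samples of this time carry Cy3 and the wild-type samples Cy5 in the labels, so dye and genotype cannot be told apart here. The study's methods name the dyes the other way for wild type and mutant.

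At 5-7 h neither row was called. FBtr0112680 averaged 14.23 in the mutant and 14.53 in wild type, a log2 difference of -0.30 (95% confidence interval -0.75 to 0.14, adjusted p = 0.391 from limma), and -0.21 with wild-type replicates 1 and 2 alone (adjusted p = 0.625). FBtr0299582 averaged 11.48 in the mutant and 11.06 in wild type, a difference of 0.42 (95% confidence interval -0.69 to 1.53, adjusted p = 0.639 from limma). With wild-type replicates 1 and 2 alone, set against all mutant samples, the difference was -0.12 (adjusted p = 0.92 from limma). This row ranked the replicates in the same order in both genotypes. Its mutant replicates 1 and 2 were at 11.53 and 12.46, against 11.10 and 12.11 in wild type, so the subset is not a matched one. The interval for FBtr0299582 covers a 2.88-fold difference, and at this time 1.50 percent of rows were called higher in the mutant. With 1 sample left out the rows called in either direction at 5-7 h numbered 77 to 574, against 415 with all samples.

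The difference of the changes between genotypes was tested as an interaction. For FBtr0112680 the mutant rise at 3-5 h was smaller by 0.56 on the log2 scale (95% confidence interval -1.96 to 0.84, adjusted p = 0.642 from limma), and its late change differed by -0.04 (95% confidence interval -0.64 to 0.56, adjusted p = 0.955). For FBtr0299582 the early change differed by 0.86 (95% confidence interval 0.22 to 1.49, adjusted p = 0.0853) and the late change by -0.30 (95% confidence interval -1.52 to 0.92, adjusted p = 0.806). With wild-type 5-7 h replicates 1 and 2 alone the late interaction was 0.055 for FBtr0112680 (adjusted p = 0.938) and -0.84 for FBtr0299582 (adjusted p = 0.389). None of the 4 passed the test with all samples, with 7.09 percent of all rows called for the early interaction and 3.15 percent for the late one. The early interaction of FBtr0299582 passed without mutant 1-3 h replicate 1, at 1.11 (adjusted p = 0.0194). The within-sample difference of the 2 rows was higher in the mutant by 0.99 at 3-5 h (exact permutation p = 0.0571, the smallest that 3 against 4 samples allow), by 0.72 at 5-7 h (exact permutation p = 0.229), and lower by 0.43 at 1-3 h (exact permutation p = 0.514). Adjusted over the 7 tests these were 0.1, 0.267 and 0.514. The difference at 5-7 h was 0.089 with wild-type replicates 1 and 2 alone (adjusted permutation p = 0.933).

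Another row, FBtr0070596, carries the label of isoform D of tlk under an earlier gene number. Its log2 signal in mutant PGCs was 13.31, 12.70 and 12.75 at 1-3 h, 13.25, 12.99 and 13.35 at 3-5 h, and 12.05, 12.89, 11.26 and 12.26 at 5-7 h. In wild-type PGCs it was 13.19, 13.21, 13.47 and 13.45 at 1-3 h, 12.55, 12.70, 12.64 and 12.50 at 3-5 h, and 11.07, 12.23, 10.90 and 11.36 at 5-7 h. Somatic cells gave 12.55, 12.64, 12.58 and 12.54. The row thus moved with FBtr0299582 and not with FBtr0112680. Over the 26 samples its Pearson r with FBtr0299582 was 0.94, the highest of all 16622 other tested rows, and with FBtr0112680 it was -0.43. After subtracting the group means, r with FBtr0299582 was still 0.90, and in both genotypes replicate 2 was the highest and replicate 3 the lowest of the 5-7 h samples for both rows. Other rows shared those extremes, as given below.

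Tests of FBtr0070596 gave smaller changes than those of FBtr0299582 in the late interval, -1.08 in the mutant (adjusted p = 0.0712 from limma) and -1.21 in wild type (adjusted p = 0.0645), or -0.95 with wild-type replicates 1 and 2 alone (adjusted p = 0.0984). In the early interval the log2 difference was 0.28 in the mutant (adjusted p = 0.441) and -0.73 in wild type (standard error 0.13, adjusted p = 0.00363), below 2-fold. The interaction of genotype and time at 3-5 h was 1.01 (standard error 0.24, 95% confidence interval 0.49 to 1.53, adjusted p = 0.0207), a 2.01-fold difference that just passed the fold limit, as did 3.85 percent of all rows in that direction. It was no longer called in 8 of the 14 fits that left out 1 sample, with values of 0.90 to 1.21. At 3-5 h the row was higher in the mutant by 0.60 (adjusted p = 0.0163).

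Few genes of the table had rows that diverged as far. Of the genes with at least 2 named rows, 469 in number with 1074 rows, the median distance between the highest and the lowest change of a gene's rows from 1-3 to 3-5 h was 0.37 in mutant and 0.54 in wild-type PGCs. For the 3 tlk rows it was 3.19 in the mutant, the 4th in size, and 4.76 in wild type, the 2nd. In the late interval the tlk rows were 1.97 apart in the mutant, the 23rd, and 1.71 apart in wild type, the 22nd. Rows called in opposite directions in the early interval were found for 1 gene in the mutant and 6 in wild type, tlk not among them. Names were at hand only for 5383 rows that the study listed as expressed or changed, so these ranks hold for that part of the table, and the rows were chosen for diverging between cell types.

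The named rows most like each member were found by Pearson r over the 26 samples, given with no p because the samples fall into the same 7 groups for every row. For FBtr0112680 they were rows of Srrm234 (r = 0.89), CG5079 (0.89), sgg (0.88), CG42304 (0.88) and TBPH (0.87). The kinase Shaggy, encoded by sgg, acts in Wingless signalling, and TBPH encodes the fly TDP-43, an RNA-binding protein. All 5 rows were low in 1-3 h PGCs, with means of 6.88 to 10.29 in the mutant and 6.79 to 10.10 in wild type, and higher in all 5 other groups. After subtracting group means r was -0.23 to 0.29, so the likeness lay between the groups and not among replicates.

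For FBtr0299582 the most similar named rows were FBtr0070596 of tlk itself, then rows of wap (r = 0.92), par-6 (0.92), Nipped-A (0.91) and rb (0.91). Nipped-A is a subunit of chromatin-modifying complexes, par-6 encodes a polarity protein and rb a subunit of the AP-3 adaptor complex. Of these 5 rows 4 are of genes on the X chromosome, 1 of them the row of tlk itself. Of the 5 rows most like FBtr0112680, a row of the same gene, 1 is on the X chromosome. Among the 5301 named rows with a chromosome the share is 16.5 percent. All 5 were lowest in 5-7 h PGCs, at 9.21 to 12.61 in the mutant and 9.07 to 12.17 in wild type. Here the likeness held among replicates too, with r of 0.53 to 0.90 after subtracting group means. A set of other rows, those that rose most early in the mutant, was also highest in replicate 2 and lowest in replicate 3 at 5-7 h. Its medians there were 90.0 and 51.3 percent of the mutant 3-5 h level in the mutant, and 76.6 and 40.3 percent in wild type. A set of rows that rose most early in wild type did not share that order. The order was thus not particular to these rows.

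**Figure D5:**
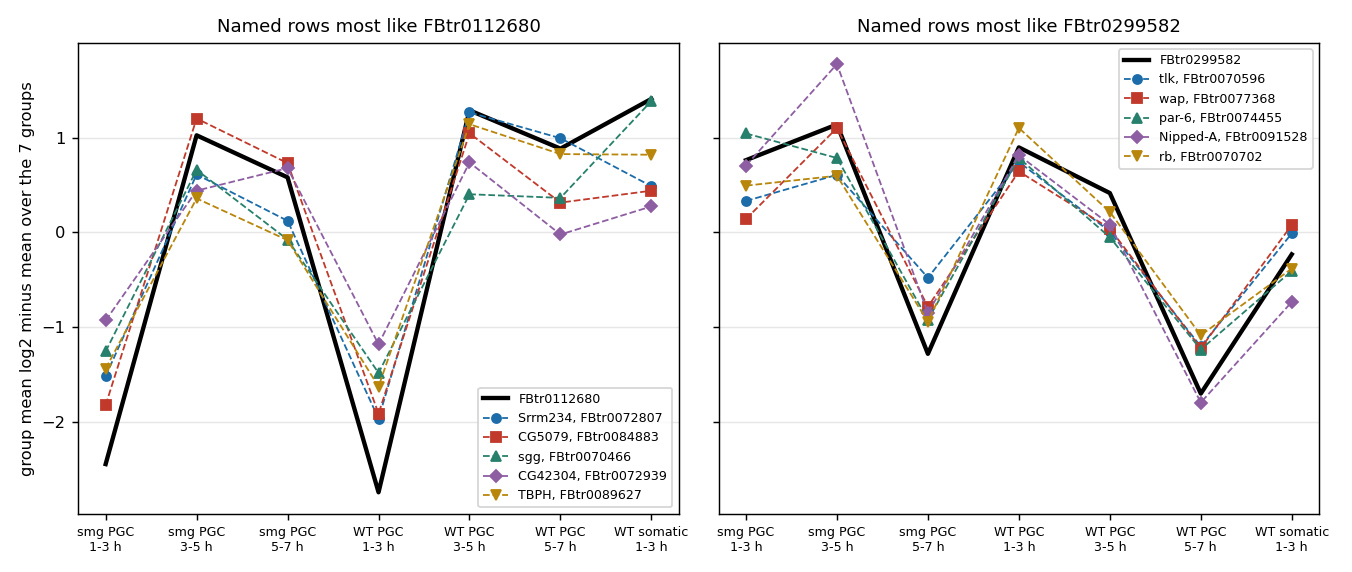
Group means of log2 intensity minus the mean over the 7 groups (vertical axis) for each member (black line) and the 5 named rows with the highest Pearson r over 26 samples (coloured, dashed). On the left all rows are lowest in both groups of 1-3 h PGCs, and on the right in both groups of 5-7 h PGCs.

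Genes around the kinase were followed through 3 lists, and the dye difference of the mutant 3-5 h samples applies to each comparison with them. Of 19 histone chaperones and chromatin assembly factors, 14 had a named row. From 1-3 to 3-5 h 0 rose and 0 fell in mutant PGCs by limma and by SAM, with 2 higher and 2 lower at an unadjusted p of 0.05, and 1 rose and 1 fell in wild type. Of all rows 5.35 percent rose and 5.56 percent fell in the mutant, and 9.02 percent rose and 8.22 percent fell in wild type. Chrac-14, which encodes a subunit of a nucleosome-remodelling complex, was the one that rose, at 1.14 ± 0.13 on the log2 scale (limma estimate ± SE, adjusted p = 0.000402). Hira, which encodes the chaperone of the replication-independent histone variant, was the one that fell, at -1.23 ± 0.19 (adjusted p = 0.0018). In the mutant Chrac-14 was at 0.08 and Hira at -0.12, and the interaction of genotype and time passed the test for both, at -1.06 (adjusted p = 0.00573) for Chrac-14 and 1.11 (adjusted p = 0.0156) for Hira. Chrac-14 was already higher in the mutant at 1-3 h, by 1.10 (adjusted p = 0.00403 from limma), where 7.46 percent of all rows were higher. At 3-5 h its levels were close (0.04, adjusted p = 0.843). Hira was level between genotypes at 1-3 h (-0.01, adjusted p = 0.979) and higher in the mutant at 3-5 h (1.10, adjusted p = 0.00254), where 8.77 percent of all rows were higher. The median of the list was 0.03 in the mutant and 0.07 in wild type, against -0.03 for all rows in both. In the late interval 2 rose and 1 fell in the mutant, where 6.03 percent of all rows rose and 6.25 percent fell. In wild type 0 were called by limma and by SAM, where limma called 2.95 percent of all rows. There 5 were higher and 2 lower at an unadjusted p of 0.05.

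The transcript of asf1, which encodes the kinase's substrate, was not called in any time comparison, and was picked out here for its role after its values were seen. The asf1 row averaged 14.12, 14.23 and 14.01 in mutant PGCs at the 3 times, 12.89, 12.88 and 13.33 in wild-type PGCs, and 12.94 in somatic cells. It was higher in the mutant by 1.23 at 1-3 h (adjusted p = 0.00204 from limma) and by 1.35 at 3-5 h (adjusted p = 0.000319), where 8.77 percent of all rows were higher, and by 0.68 at 5-7 h, where it was not called (adjusted p = 0.126). The kinase rows showed no call between genotypes at any of these times. At 3-5 h FBtr0299582 and FBtr0070596 were higher in the mutant by 0.72 and 0.60 (adjusted p = 0.0148 and 0.0163 from limma), short only of the fold limit. FBtr0112680 was not (-0.26, adjusted p = 0.398).

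Of 18 DNA damage checkpoint and mitotic entry genes, 14 had a named row. In the early interval 0 were called in mutant PGCs by limma, where 1 was higher and 6 lower at an unadjusted p of 0.05 and SAM called 1 as higher. In wild type 0 rose and 3 fell, where 8.22 percent of all rows fell. The 3 were stg and twe, both Cdc25 phosphatases that trigger entry into division, and Myt1, an inhibitory kinase of the same step. Their log2 differences in wild type were -1.61 for stg (adjusted p = 0.000148 from limma), -1.14 for twe (adjusted p = 0.00104) and -1.19 for Myt1 (adjusted p = 0.00074). In the mutant they were at -0.69 for stg (adjusted p = 0.0518), -0.94 for twe (adjusted p = 0.0137) and -0.92 for Myt1 (adjusted p = 0.0412), none past the fold limit. The stg row was already lower in the mutant than in wild type at 1-3 h, at -0.94 (adjusted p = 0.00835 from limma, below the fold limit). At 3-5 h it was level between genotypes, at -0.02 (adjusted p = 0.938). For twe and Myt1 the adjusted p between genotypes was above 0.05 at both times. The median of the list was -0.30 in the mutant and -0.28 in wild type. In the late interval 1 of the list rose and 2 fell in the mutant, where 6.03 percent of all rows rose and 6.25 percent fell. The one that rose was p53, the damage-response transcription factor, at 1.04 (adjusted p = 0.0155 from limma), and those that fell were stg at -1.15 (adjusted p = 0.0203) and mus304, which encodes the partner protein of the checkpoint kinase Mei-41, at -1.05 (adjusted p = 0.0313). In wild type 0 were called by limma, where 2.95 percent of all rows were called, with 1 higher and 2 lower at an unadjusted p of 0.05, and SAM called 3 as lower. The late median of the list was 0.08 in the mutant and -0.48 in wild type. Across wild-type 5-7 h samples the SD was 1.96 for stg, 1.86 for twe, 1.54 for mus304, 0.84 for p53 and 0.33 for Myt1. At 3-5 h it was 0.10 to 0.24 for these genes. The part of replicates 3 and 4 in the late wild-type values was not tested. p53 and mus304 were named here after their values were seen.

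Of 20 replication genes, 15 had a named row. In the early interval 0 rose and 2 fell in each genotype, where 5.56 percent of all rows fell in the mutant and 8.22 percent in wild type, with list medians of -0.44 in the mutant and -0.06 in wild type. The 2 in wild type were Orc4, of the origin recognition complex, at -1.33 (adjusted p = 0.00074 from limma), and Psf3, of the GINS complex of the replication fork, at -1.24 (adjusted p = 0.00538). Orc4 was also called in the mutant, at -1.24 (adjusted p = 0.0107), whereas Psf3 was at -0.96 there and below the fold limit. In the late interval 2 of the list rose in the mutant, among them Psf3 at 1.83 (adjusted p = 0.0055), where 6.03 percent of all rows rose. In wild type, where 2.95 percent of all rows were called, 0 were called in the list by limma and by SAM, with 2 higher and 1 lower at an unadjusted p of 0.05. Psf3 was at 1.66 there (adjusted p = 0.057).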

How the data were processed

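RNA from PGCs and somatic cells sorted for Vasa-GFP was, per the study's methods, amplified, labelled with Cy3 or Cy5 and hybridized with 2 samples per custom NimbleGen array, and which samples shared an array was not given in the sources used here. The deposited values are intensities per transcript, which the authors normalized between arrays with RMA, on a linear scale, and all 26 samples are in 1 table. The genome build was not given in the sources used here, so no coordinates or sequences are printed. Row names came from the study's supplements, matched by value, for 5383 rows of 4778 genes, and symbols from RefSeq. Intensities were taken as log2 with no offset, and the 16623 rows with a transcript identifier were tested with limma (version 3.58.1, R 4.3.3), each comparison fitted to its own samples alone, with Benjamini-Hochberg adjustment over all rows and a call at an adjusted p of at most 0.05 and a fold above 2. The within-sample difference of the 2 members was tested by exact two-sided permutation (scipy 1.17.1). The number of arrays, 3 or 4 a group, limits the precision, and p-values measure the spread between these samples. Replicates of a group correlated at 0.868 to 0.991 (Spearman) and shared at most 5 identical values, so none was counted as a duplicate.

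The members, the gene lists and the markers were chosen with earlier results of these data known. Other genes were named if called in wild-type PGCs from 1-3 to 3-5 h in the lists, or if among the 5 named rows most correlated with a member. Alternatives were 1 fit of all 7 groups, median centring, a second quantile normalization, an offset of 32, array weights, a block for the replicate number, rows with a mean log2 of at least 8, SAM, leaving out each replicate and 2 subsets of the wild-type 5-7 h samples. The tests were tested on simulated data.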

Additional observations from a re-analysis of the deposited data

Results flagged for a closer look

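Somatic replicate 4 was the lowest of its group in the within-sample difference of FBtr0299582 and FBtr0112680, at -2.65 against -2.50 to -2.48 in the other somatic replicates. It stood far from the others relative to the small spread of that group, and among the 20 sets of 4 samples examined for such a sample chance alone would flag about 1 in 20. The interaction of genotype and time at 3-5 h for FBtr0070596, at 1.01 (adjusted p = 0.0207 from limma), marked a change that differed between *smaug*-mutant and wild-type PGCs. The row changed by 0.28 in the mutant and by -0.73 in wild type, and the mutant 3-5 h samples carry another dye in the labels, so dye and genotype cannot be told apart there.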

How the results depend on the processing

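Of 379 alternative values of the 2 members and of their within-sample difference, 355 kept the direction and the side of the threshold. The tests of the within-sample difference could not reach an adjusted p under 0.0667, so for them the side of the threshold was fixed in advance. Their part of the 355 therefore speaks only to direction. The rises of FBtr0112680 kept their call with each sample left out, at 3.25 to 3.77 in mutant PGCs and 3.71 to 4.51 in wild-type PGCs. The late fall of FBtr0299582 ranged from -2.74 to -2.15 in the mutant and from -2.46 to -1.85 in wild type with 1 sample left out. Its differences below 2-fold that passed the adjusted p depended on the setting, with adjusted p-values of 0.00443 to 0.16 for mutant against wild type at 3-5 h and 0.0045 to 0.316 for the early wild-type change. Over all rows, the replicate numbers did not clearly pair the samples. Same-numbered samples correlated at only -0.14 to 0.22 in their deviations, and no comparison had every correlation over 0.1. Between genotypes at 5-7 h these correlations were 0.033 to 0.22, and FBtr0299582 ranked the replicates in the same order in both genotypes. The unpaired comparisons at that time take no account of this. With the number as a replicate block the late fall of FBtr0299582 was no longer called in the mutant (-2.34, adjusted p = 0.064 from limma) or in wild type (-2.11, adjusted p = 0.121), and the rows called fell to 120 against 2042 in the mutant and to 0 against 490 in wild type, where 3487 rows had an unadjusted p below 0.05. The block also left 1171 against 2237 rows between genotypes at 1-3 h, 43 against 415 at 5-7 h and 235 against 524 for the late interaction, and it changed no other call of the members. The following differences, none of them called, changed sign. The difference of FBtr0299582 between genotypes at 5-7 h was -0.12 with wild-type replicates 1 and 2 only, set against all mutant samples. The late interaction of FBtr0112680 was 0.10 after a second quantile normalization, 0.067 with array weights and 0.055 with those replicates, and -0.27 to 0.10 with 1 sample left out. That of FBtr0299582 was 0.24 with wild-type replicates 3 and 4 only, chosen after the data were seen, and -0.63 to 0.045 with 1 sample left out. At 1-3 h the difference between genotypes ran from -0.014 to 0.78 for FBtr0112680 and from -0.38 to 0.059 for FBtr0299582 with 1 sample left out. The early interaction of FBtr0299582 ran from 0.66 to 1.11 and was called only without mutant 1-3 h replicate 1. For FBtr0070596 the early interaction was lost in 8 of 14 such fits (0.90 to 1.21), in the fit of all 7 groups (1.01, adjusted p = 0.207), after median centring or a second quantile normalization (0.99 each, below the fold limit) and with the block (adjusted p = 0.0514), and its late interaction turned to -0.032 with array weights and -0.13 with wild-type replicates 1 and 2 only, and ran from -0.13 to 0.41 with 1 sample left out. The count of rows called in the late wild-type comparison, 490, was 2698 in the fit of all 7 groups, 999 with array weights, 1153 by SAM, 1268 with wild-type replicates 1 and 2 and 4448 with 3 and 4. For genotypes at 5-7 h, 415, it was 2914, 1137, 941, 804 and 4100 in the same order, and for the late interaction, 524, it was 1413 and 1110 in the first pair and 1110 and 4194 for the subsets. The early interaction had 427 against 1178 rows in the fit of all 7 groups, and without dim rows the early comparison had 1117 against 1814 in the mutant and 1877 against 2865 in wild type. With 1 sample left out the calls numbered 1031 to 1478 for the early mutant comparison, 0 to 1024 for the late wild-type one, 77 to 574 between genotypes at 5-7 h and 146 to 982 for the late interaction. With wild-type replicates 1 and 2 only the within-sample difference changed by -1.08 late in wild type and was 0.089 between genotypes at 5-7 h. The cause was not tested. The rows of the members lay well above the median of the array controls in every sample.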

Other observations

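The row CG32781x carries a gene number that RefSeq lists as an older name of tlk, without a transcript identifier, and was left out of the tests. Its mean log2 signals were 6.35, 4.10 and 4.76 in *smaug*-mutant PGCs in order of time, 5.39, 4.63 and 4.33 in wild-type PGCs, and 4.29 in somatic cells, and groups next to each other in level all overlapped. The median of the array controls was 4.06 to 4.83, so most of these means lay at or near background.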
